A study of Homo sapiens with 9 samples.

Results

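The hypoxia response genes were 10 named genes of the oxygen response: HIF1A, EPAS1, EGLN1, EGLN3, ADM, ANGPTL4, VEGFA, CA9, NDRG1 and BNIP3. All probe sets that the array's annotation table assigned to exactly 1 of them were taken, whatever their values. The genes themselves were chosen with earlier results of these data known. That gave 20 probe sets for 9 of the 10 genes, out of 41091 single-gene probe sets for 19775 genes. The table paired no probe set with CA9, the membrane carbonic anhydrase, so CA9 has no value here. Each RNA sample came from the human line A549, long established from a lung adenocarcinoma, whose KEAP1 mutation keeps NRF2 active. RNA was taken 96 h after transfection with a cationic lipid reagent. The 3 groups were cells given an siRNA against Nrf2 (25 nM), cells given a non-targeting siRNA (NS siRNA, 25 nM) and mock cells given the transfection reagent alone, with 3 biological replicates each and 1 Affymetrix array per replicate. No group with another Nrf2 siRNA or with restored NRF2 was analysed here, so loss of NRF2 and an off-target effect of its siRNA cannot be told apart. The labels name no oxygen tension and no hypoxic culture.

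Cells sense oxygen through the hypoxia-inducible factors, whose alpha subunits HIF1A and EPAS1 (HIF-2 alpha) pair with ARNT on DNA. When oxygen is present, the prolyl hydroxylases of the EGLN family hydroxylate the alpha subunits, and the VHL ubiquitin ligase then marks them for destruction, so HIF activity is set mainly at the protein level. When oxygen is short, the factors bind hypoxia response elements and raise genes such as VEGFA, ADM, ANGPTL4, CA9, NDRG1, BNIP3 and, as feedback, EGLN1 and EGLN3. The arrays read mRNA only and hold no measure of HIF protein.

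The core of a hypoxia response element is ACGTG or GCGTG, and the antioxidant response element that NRF2 binds has the core TGACNNNGC. Both strands were searched for these letters in the RefSeq promoter windows of GRCh38.p14, from 250 bases before to 50 bases after each annotated start. The table held 8 of the 10 genes with 9 windows, since HIF1A has a pair of starts; VEGFA and NDRG1 were not among them. ACGTG or GCGTG stood in 7 of the 9 windows, against 48.4% of all 35116 promoter windows of that length. TGACNNNGC stood in the window of 1 gene, HIF1A, against 13.3% of all windows. A match describes letters and is no evidence of binding. The 250 bases before the start are printed for 5 genes: HIF1A for the TGACNNNGC match, BNIP3 for its repeated cores, and EGLN1, ADM and ANGPTL4 because their brightest probe sets had the largest differences from NS siRNA among the 9 genes. Capitals mark matches; CACGT and CACGC are the same cores read on the other strand.

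HIF1A (chr14:61695263-61695512, plus strand): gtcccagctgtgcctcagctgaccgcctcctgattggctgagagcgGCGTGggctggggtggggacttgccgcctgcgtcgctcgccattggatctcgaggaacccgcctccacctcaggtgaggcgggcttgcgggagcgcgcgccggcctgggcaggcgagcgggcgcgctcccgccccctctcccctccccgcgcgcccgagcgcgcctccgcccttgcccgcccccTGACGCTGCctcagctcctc
EGLN1 (chr1:231422288-231422537, minus strand): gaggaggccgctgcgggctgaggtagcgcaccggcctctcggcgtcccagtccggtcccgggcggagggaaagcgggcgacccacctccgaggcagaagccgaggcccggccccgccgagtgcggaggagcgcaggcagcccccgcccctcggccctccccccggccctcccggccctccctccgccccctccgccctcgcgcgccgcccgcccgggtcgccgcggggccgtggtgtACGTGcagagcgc
ADM (chr11:10304823-10305072, plus strand): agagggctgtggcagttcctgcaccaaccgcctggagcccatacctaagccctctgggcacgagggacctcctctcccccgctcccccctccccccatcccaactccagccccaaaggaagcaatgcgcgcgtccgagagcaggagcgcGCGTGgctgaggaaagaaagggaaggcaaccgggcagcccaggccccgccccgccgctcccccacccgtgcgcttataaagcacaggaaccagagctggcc
ANGPTL4 (chr19:8363905-8364154, plus strand): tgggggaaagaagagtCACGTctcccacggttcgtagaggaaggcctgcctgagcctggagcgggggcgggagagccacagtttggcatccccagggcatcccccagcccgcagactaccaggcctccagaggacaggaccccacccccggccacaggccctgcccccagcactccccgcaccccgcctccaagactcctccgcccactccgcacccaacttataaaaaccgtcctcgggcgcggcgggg
BNIP3 (chr10:131981924-131982173, minus strand): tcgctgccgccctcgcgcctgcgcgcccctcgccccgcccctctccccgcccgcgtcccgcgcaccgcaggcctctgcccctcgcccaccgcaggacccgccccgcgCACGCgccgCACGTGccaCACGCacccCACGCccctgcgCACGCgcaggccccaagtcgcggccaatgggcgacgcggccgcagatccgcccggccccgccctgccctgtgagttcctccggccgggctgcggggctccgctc

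BNIP3 held 6 core matches between 143 and 104 bases before its start, a pair of them overlapping in 1 palindrome. The single ANGPTL4 core began 234 bases before its start, that of ADM 101 bases and that of EGLN1 13 bases. In HIF1A the GCGTG began 204 bases and the TGACNNNGC 20 bases before the start.

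In the whole series, array medians lay between 7.51 and 7.57 on the log2 scale, and the median SD between replicates was 0.0732. The siRNA target NFE2L2, which encodes NRF2, was lower by 1.84 ± 0.06 (SE) after Nrf2 siRNA than after NS siRNA and by 1.74 ± 0.06 than in mock. Its limma adjusted p was 3.09e-10 and 1.01e-09, and 2 of its 3 probe sets were called lower in each comparison. The mean of the 3 was lower by 1.03 than in NS siRNA and by 0.93 than in mock. All 7 epithelial markers lay above the array medians in every group. So did 5 of 8 endothelial markers in every group, 5 or 6 of 8 fibroblast markers and 2 or 3 of 6 immune markers. A level above the medians thus does not by itself tell cell types apart. The values carry no detection call, so a dim probe set cannot be called undetected. The p-values measure only the spread between these arrays, and on bulk RNA fewer cells expressing a gene and less RNA per cell cannot be told apart.

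Against NS siRNA, 19 of the 20 probe sets passed an adjusted p of 0.05, 5 higher and 14 lower after Nrf2 siRNA. The same call was made for 41.7% of all single-gene probe sets, 20.2% higher and 21.5% lower. Only 1 of the 20 lay below the array medians, and the share called among probe sets of similar brightness is not given here. The median difference of the 20 was -0.38 (log2), and that of all probe sets was -0.04. Against mock, 13 of the 20 passed, 1 higher and 12 lower, where 28.6% of all probe sets passed, 15.2% higher and 13.3% lower. Their median difference was -0.21, against -0.01 for all. NS siRNA and mock themselves differed for 9 of the 20, 4 higher and 5 lower in NS siRNA, where 25.9% of all probe sets passed. That split was 2 higher and 5 lower when the arrays were set to equal medians, and 7 and 5 after quantile normalization. The 3 Nrf2 siRNA arrays lay above all 6 controls for 2 of the 20 and below all of them for 11, together 13, a separation that 28.4% of all probe sets showed. Both comparisons of Nrf2 siRNA use the same Nrf2 siRNA arrays, and they differ from each other by exactly the difference between NS siRNA and mock. On the brightest probe set of each gene, 5 of 9 genes were lower after Nrf2 siRNA than in both controls. They were EPAS1, ANGPTL4, VEGFA, NDRG1 and BNIP3. A further 1 was higher than in both (EGLN1), and 3 differed from NS siRNA without passing against mock (HIF1A, EGLN3 and ADM). Of all genes, 24.7% were lower and 20.4% higher than in NS siRNA, and 15.5% lower and 15.6% higher than in mock. The share called against both controls together was not counted. With probe sets averaged within genes, 7 of the 9 were lower than in mock and 0 higher. In that fit 3217 of all 19775 genes were lower than in mock and 3184 higher.

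**Figure D1:**
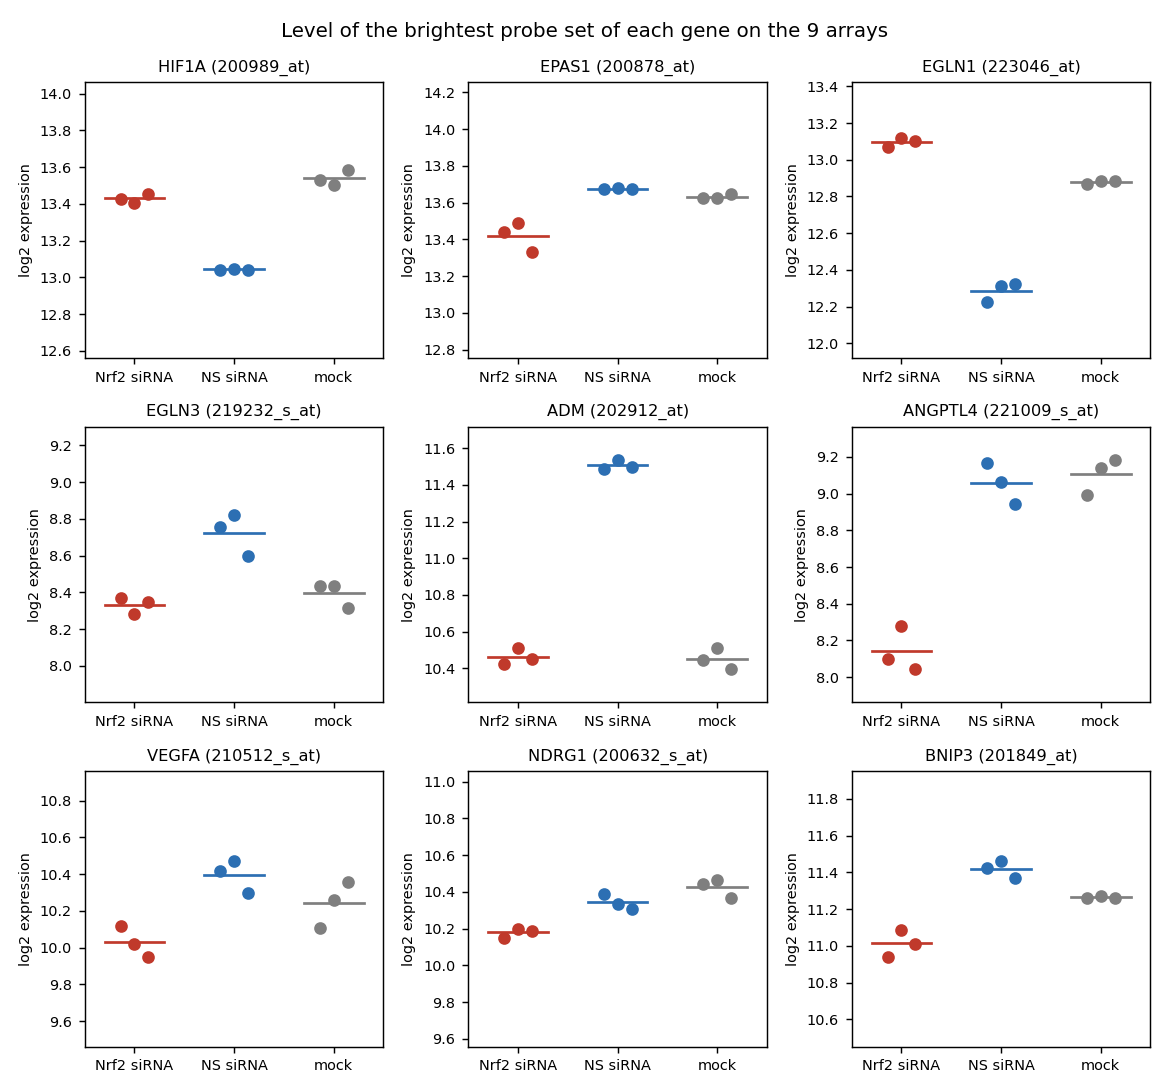
Log2 expression on each of the 9 arrays (points) with group means (lines), for the brightest probe set of each of the 9 measured genes; every panel spans the same number of log2 units, and the position of points within a group is only a spread. ANGPTL4 lay between 8.04 and 8.28 on the Nrf2 siRNA arrays and at 8.94 or above on all 6 controls, whereas ADM stood apart in NS siRNA and overlapped between Nrf2 siRNA and mock.

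Relative to NS siRNA, HIF1A rose and EPAS1 fell. HIF1A, the alpha subunit present in most cell types, stood at 13.43, 13.41 and 13.46 (log2) after Nrf2 siRNA, at 13.04, 13.05 and 13.04 after NS siRNA and at 13.53, 13.50 and 13.58 in mock. The Nrf2 siRNA arrays lay between the 2 controls and overlapped with neither. HIF1A was thus 1.31-fold higher than in NS siRNA (0.39 ± 0.04 SE, log2; limma adjusted p = 1.37e-05). Its difference from mock, -0.11 ± 0.04, did not pass (adjusted p = 0.0909), but did so in 4 of 19 alternative settings, with adjusted p from 0.00528 (variance trend and robust variances) to 0.258 over all 19. In NS siRNA it was 1.41-fold lower than in mock (adjusted p = 4.05e-06).

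EPAS1, the alpha subunit known from endothelium and lung epithelium, fell against both controls. Its brightest probe set read 13.44, 13.49 and 13.33 after Nrf2 siRNA, 13.67, 13.68 and 13.67 after NS siRNA and 13.63, 13.63 and 13.64 in mock. All 3 Nrf2 siRNA arrays lay below the 6 controls, a separation shown by 14% of all probe sets. The difference was -0.26 ± 0.05 (SE) against NS siRNA and -0.21 ± 0.05 against mock (limma adjusted p = 0.000998 and 0.00541). The next probe set, 200879_s_at, gave larger values of -0.42 ± 0.05 against NS siRNA and -0.49 ± 0.05 against mock (adjusted p = 3.03e-05 and 1.47e-05). The dimmest, 241055_at, ranged only from 6.27 to 6.42 over the 9 arrays, below the array medians, and differed by -0.01 ± 0.05 from NS siRNA (adjusted p = 0.838). NS siRNA and mock did not differ past the threshold on any of the 3.

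The prolyl hydroxylases also split. EGLN1 (PHD2), the main oxygen sensor that hydroxylates HIF1A, read 13.07, 13.12 and 13.10 on its brightest probe set after Nrf2 siRNA, 12.22, 12.31 and 12.32 after NS siRNA and 12.87, 12.88 and 12.88 in mock. The NS siRNA arrays were the low ones, and Nrf2 siRNA lay above all 6 controls. All 4 EGLN1 probe sets were higher than in NS siRNA, by 0.64 to 0.81, or 1.56-fold to 1.76-fold (largest adjusted p = 1.36e-05). Against mock the 4 values ran from -0.03 to 0.22, and 1 of 4 passed, the brightest (0.22 ± 0.05 SE; limma adjusted p = 0.00307). The mean of the 4 did not pass against mock (0.11 ± 0.05, adjusted p = 0.116), the largest p of the 19 alternatives, whose smallest was 3.65e-05. All 4 were lower in NS siRNA than in mock, with differences of -0.67 to -0.59 (smallest adjusted p = 1.20e-06).

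EGLN3 (PHD3), a hydroxylase strongly induced by HIF, showed the reverse order. Its brighter probe set read 8.37, 8.28 and 8.35 after Nrf2 siRNA, 8.76, 8.82 and 8.60 after NS siRNA and 8.43, 8.43 and 8.32 in mock. It was lower than in NS siRNA by 0.39 ± 0.06 (SE, limma adjusted p = 0.000213), while its difference from mock, -0.06 ± 0.06, did not pass (adjusted p = 0.525) and the arrays overlapped. The other probe set, 222847_s_at, read 7.97, 7.79 and 7.80 after Nrf2 siRNA, 8.48, 8.50 and 8.39 after NS siRNA and 8.33, 8.25 and 8.25 in mock. On it EGLN3 fell by 0.60 ± 0.06 against NS siRNA and by 0.42 ± 0.06 against mock (adjusted p = 3.25e-06 and 0.00014). Whether EGLN3 differed from mock thus depended on the probe set. The mean of both differed from mock by -0.24 (limma adjusted p = 0.00345). NS siRNA exceeded mock on both probe sets, by 0.33 ± 0.06 and 0.18 ± 0.06 (adjusted p = 0.00152 and 0.0399). The second of these calls was lost in 7 of the 17 alternative settings that keep this probe set apart, among them the fits without NS siRNA replicate 1 or 2 and without mock replicate 2 or 3 (0.16 to 0.17).

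Of the secreted products, ADM had the widest difference from NS siRNA among the 9 genes and none past the threshold from mock. ADM encodes adrenomedullin, a vasodilator peptide induced by hypoxia. It read 10.42, 10.51 and 10.45 after Nrf2 siRNA, 11.49, 11.53 and 11.50 after NS siRNA and 10.45, 10.51 and 10.40 in mock. The NS siRNA arrays stood about 1 log2 unit above the other 6, whose ranges overlapped. ADM was 2.06-fold lower after Nrf2 siRNA than after NS siRNA (-1.04 ± 0.05 SE, log2; limma adjusted p = 4.32e-09), larger in size than the difference of 97.7% of all probe sets. Against mock it differed by 0.01 ± 0.05 (adjusted p = 0.916). NS siRNA exceeded mock by 1.05 ± 0.05 (adjusted p = 1.69e-08). ADM was the single probe set of the 20 with a called change of 2-fold or more against NS siRNA, which 2.57% of all probe sets had; against mock 0 of the 20 had one, beside 1.33% of all, and ADM was again the single one between NS siRNA and mock, beside 0.803%.

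ANGPTL4 fell against both controls, and by more than any other of the 9 genes against mock. It encodes angiopoietin-like 4, a secreted inhibitor of lipoprotein lipase that hypoxia, PPAR ligands and fasting induce. Its brighter probe set read 8.10, 8.28 and 8.04 after Nrf2 siRNA, 9.17, 9.06 and 8.94 after NS siRNA and 8.99, 9.14 and 9.18 in mock. The dimmer one read 7.97, 7.94 and 7.93 after Nrf2 siRNA, 8.86, 8.76 and 8.76 after NS siRNA and 8.77, 8.94 and 8.93 in mock. On both, the 2 controls overlapped and the Nrf2 siRNA arrays lay below all of them. The brighter probe set was 1.89-fold lower than in NS siRNA (-0.92 ± 0.08 SE, log2; limma adjusted p = 7.25e-07) and 1.95-fold lower than in mock (-0.96 ± 0.08; adjusted p = 9.81e-07). The dimmer one was 1.79-fold lower than in NS siRNA and 1.90-fold lower than in mock (adjusted p = 8.61e-08 and 7.78e-08). The difference of NS siRNA from mock was -0.05 ± 0.08 and -0.09 ± 0.06 on them, neither past the threshold, at adjusted p = 0.703 and 0.304.

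VEGFA, the chief angiogenic growth factor, fell on all 4 probe sets against both controls. The brightest of its 4 read 10.12, 10.02 and 9.95 after Nrf2 siRNA, 10.42, 10.47 and 10.29 after NS siRNA and 10.11, 10.26 and 10.36 in mock, so that 1 Nrf2 siRNA array lay inside the mock range. On the other 3, Nrf2 siRNA was below all 6 controls; 211527_x_at, for example, read 9.25, 9.14 and 9.09 after Nrf2 siRNA, 9.74, 9.62 and 9.62 after NS siRNA and 9.50, 9.61 and 9.49 in mock. The 4 differences from NS siRNA ran from -0.50 to -0.30 (limma adjusted p from 1.50e-05 to 0.00113) and those from mock from -0.38 to -0.21 (adjusted p from 0.000326 to 0.0431). The fall of the brightest one against mock was lost in 9 of 19 alternative settings, among them the fits without Nrf2 siRNA replicate 2 (-0.21) or 3 (-0.17), NS siRNA replicate 1 (-0.21) and mock replicate 2 (-0.20) or 3 (-0.15), with adjusted p from 0.000208 to 0.176 over all 19. All 4 were higher in NS siRNA than in mock by 0.09 to 0.15 without passing (adjusted p from 0.0829 to 0.194). The suffix _x_at marks probe sets whose probes can match other transcripts, which applies to 2 of the 4.

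**Figure D2:**
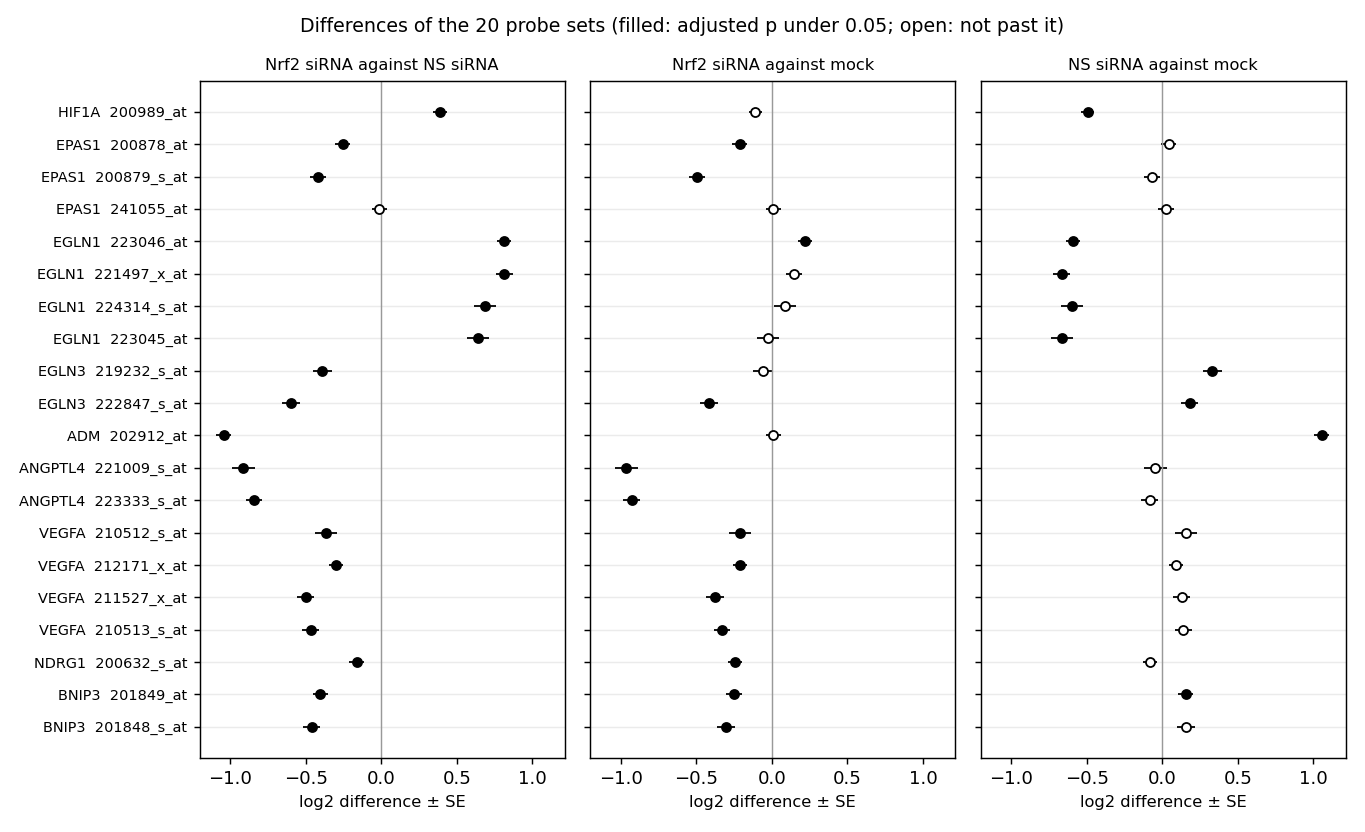
Log2 differences ± SE of the 20 probe sets in the 3 comparisons; filled points passed an adjusted p of 0.05 and open points did not. HIF1A, EGLN1, EGLN3, ADM and the brighter BNIP3 probe set passed in the left panel and also between NS siRNA and mock in the right one. The ANGPTL4 probe sets stood between -0.96 and -0.84 against both controls.

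Both intracellular targets fell against both controls. BNIP3, a mitochondrial BH3-type protein that promotes mitophagy in hypoxia, read 10.94, 11.09 and 11.01 on its brighter probe set after Nrf2 siRNA, 11.43, 11.46 and 11.37 after NS siRNA and 11.26, 11.27 and 11.26 in mock. The 3 groups did not overlap, with Nrf2 siRNA the lowest and NS siRNA the highest. It was lower by 0.41 ± 0.05 (SE) against NS siRNA and by 0.25 ± 0.05 against mock (limma adjusted p = 2.56e-05 and 0.00204). The dimmer probe set gave -0.46 ± 0.06 against NS siRNA and -0.30 ± 0.06 against mock (adjusted p = 2.94e-05 and 0.00147). NS siRNA exceeded mock by 0.15 ± 0.05 on the brighter one (adjusted p = 0.0388), a call lost in 7 of 19 alternative settings, and by 0.16 ± 0.06 on the dimmer (adjusted p = 0.066), which passed in 7 of the 17 settings that keep it apart. The call on the brighter one was lost without NS siRNA replicate 1 or 2 and without any 1 of the mock replicates (0.13 to 0.16).

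NDRG1, a stress-responsive gene named N-myc downstream regulated 1 and a frequent marker of hypoxia, read 10.15, 10.20 and 10.19 after Nrf2 siRNA, 10.39, 10.33 and 10.31 after NS siRNA and 10.44, 10.46 and 10.37 in mock. The Nrf2 siRNA arrays were below all controls and the controls overlapped. Its fall was 0.16 ± 0.05 (SE) against NS siRNA and 0.24 ± 0.05 against mock (limma adjusted p = 0.0146 and 0.00173), and 58.6% of all probe sets had a smaller difference from NS siRNA. The call against NS siRNA was lost in 2 of 19 alternative settings, at a threshold of 0.01 and without NS siRNA replicate 1 (-0.14, adjusted p = 0.0578), and over the 19 alternatives the adjusted p ranged from 0.000675 to 0.0578.

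A wider set of 121 genes of the oxygen response, of which 113 were measured, was read on 1 probe set a gene, the brightest. Against NS siRNA 35 rose and 29 fell, or 56.6%, where 45.1% of all genes passed on their brightest probe set (20.4% higher, 24.7% lower). Against mock 25 rose and 27 fell, or 46%, where 31.1% of all genes passed (15.6% higher, 15.5% lower). The median difference of the 113 was -0.04 against NS siRNA and -0.02 against mock, and that of all genes was -0.05 against NS siRNA and -0.02 against mock. The 9 genes above had medians of -0.37 against NS siRNA and -0.21 against mock on the same footing. The wider set thus went both ways.

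More of the other HIF subunits and partners rose than fell, each read on its brightest probe set. Of 5 genes, 3 rose and 0 fell against NS siRNA (60% called, beside 45.1% of all genes). Against mock 3 rose and 1 fell (80%, beside 31.1%). The coactivators CREBBP and EP300 rose by 0.61 ± 0.05 (SE) and 0.32 ± 0.08 against NS siRNA (limma adjusted p = 3.15e-07 and 0.00656) and by 0.22 and 0.25 against mock (adjusted p = 0.00324 and 0.0379). CREBBP was called on 2 of 4 probe sets against NS siRNA. The neural dimer partner ARNT2 rose by 0.39 ± 0.05 against NS siRNA and by 0.33 ± 0.05 against mock (adjusted p = 3.62e-05 and 0.000296). ARNT, the obligate partner in most tissues, differed by -0.08 ± 0.06 (adjusted p = 0.326) from NS siRNA on its brightest probe set, while 2 of its 7 were called higher. Against mock that probe set was the 1 that fell, by 0.19 (adjusted p = 0.0447). HIF3A, the remaining gene of the list, is named outside the rule, after its values were seen. It differed from NS siRNA by 0.06 ± 0.08 (adjusted p = 0.584) on its brightest probe set, while 2 of its 7 were called lower.

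Among 11 genes of HIF sensing and turnover, 0 rose and 4 fell against NS siRNA (36.4% called, beside 45.1% of all genes). Against mock 1 rose and 1 fell (18.2%, beside 31.1%). CITED2, an inhibitor that competes with HIF1A for the coactivators and is itself a HIF target, lay between the controls: it was lower than in NS siRNA by 0.72 ± 0.06 (SE) and higher than in mock by 0.80 ± 0.06 (limma adjusted p = 3.96e-07 and 3.53e-07). NS siRNA exceeded mock by 1.52 ± 0.06 (adjusted p = 2.54e-09). ELOC, the elongin C subunit of the VHL ligase, fell by 0.50 ± 0.05 against NS siRNA and by 0.25 ± 0.05 against mock (adjusted p = 1.94e-06 and 0.00104). Against mock 1 of its 2 probe sets was called. The asparaginyl hydroxylase HIF1AN (FIH) was lower than in NS siRNA by 0.24 ± 0.05 (adjusted p = 0.00183; 1 of 3 probe sets) and differed from mock by 0.08 ± 0.05 (adjusted p = 0.277). EGLN2 (PHD1), dim on this array, was at -0.17 ± 0.05 against NS siRNA and -0.10 ± 0.05 against mock (adjusted p = 0.0219 and 0.191). VHL itself differed by -0.19 from NS siRNA without passing (adjusted p = 0.211); it is named outside the rule, after its value was seen.

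Among other vascular ligands and receptors, more rose than fell. Of 13 measured, 6 rose and 1 fell against NS siRNA (53.8% called, beside 45.1% of all genes). Against mock 5 rose and 1 fell (46.2%, beside 31.1%). PDGFA, a platelet-derived growth factor chain, rose by 0.96 ± 0.06 (SE) against NS siRNA and by 0.70 ± 0.06 against mock (limma adjusted p = 3.55e-08 and 1.43e-06; 1 of 2 probe sets in each). ANGPT1, the TEK ligand angiopoietin 1, rose by 0.49 ± 0.09 against NS siRNA and by 0.63 ± 0.09 against mock (adjusted p = 0.000772 and 0.00017) from a level below the array medians. The VEGF co-receptors NRP1 and NRP2 rose by 0.44 ± 0.05 and 0.43 ± 0.05 against NS siRNA (adjusted p = 1.20e-05 and 2.33e-05). Against mock NRP1 rose by 0.17 (adjusted p = 0.0188), with 1 of its 4 probe sets called higher. NRP2 differed from mock by 0.02 (adjusted p = 0.819) on its brightest probe set, with 3 of its 11 called higher.

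In the adrenomedullin list, 16.7% were called in each comparison of Nrf2 siRNA, beside 45.1% of all genes against NS siRNA and 31.1% against mock. In each, 1 of 6 genes fell and 0 rose. That gene was ACKR3, an atypical chemokine receptor that also takes up adrenomedullin, at -2.13 ± 0.07 (SE) against NS siRNA and -1.63 ± 0.07 against mock (limma adjusted p = 2.61e-10 and 5.19e-09), on 2 of 3 probe sets. RAMP1, RAMP2 and ADM2 differed from NS siRNA by -0.13, -0.14 and -0.10, none past the threshold (adjusted p = 0.0904, 0.147 and 0.148).

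Among genes that, like CA9, handle protons and bicarbonate, 5 of 8 were measured. Of these, 4 rose and 1 fell against NS siRNA (100% called, beside 45.1% of all genes). Against mock 1 rose and 2 fell (60%, beside 31.1%). The sodium bicarbonate cotransporter SLC4A4 rose by 1.18 ± 0.06 (SE) against NS siRNA and by 1.26 ± 0.06 against mock (limma adjusted p = 3.94e-09 and 4.76e-09; 3 and 4 of 5 probe sets). CA2, the cytosolic carbonic anhydrase, fell by 0.79 ± 0.11 against NS siRNA and by 1.06 ± 0.11 against mock (adjusted p = 5.75e-05 and 8.13e-06), although it was dim. SLC4A7 and basigin (BSG), a chaperone of lactate transporters, were higher than NS siRNA by 0.50 and 0.44 (adjusted p = 1.06e-05 and 0.000121) and at 0.01 and 0.03 against mock (adjusted p = 0.91 and 0.796); for SLC4A7, 1 of 4 probe sets was called higher and 1 lower against NS siRNA, and 2 of 4 were called higher against mock. CA12, the other membrane carbonic anhydrase linked to hypoxia, is named outside the rule after its values were seen. It rose by 0.33 ± 0.07 against NS siRNA and fell by 0.52 ± 0.07 against mock (adjusted p = 0.00341 and 0.000174), and the difference between NS siRNA and mock was -0.84 (adjusted p = 3.55e-06).

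Of 7 relatives of NDRG1 and BNIP3, 2 were higher and 2 lower against NS siRNA (57.1% called, beside 45.1% of all genes). Against mock 3 were higher and 2 lower (71.4%, beside 31.1%). All 7 differed between NS siRNA and mock, 3 higher and 4 lower in NS siRNA, beside 28.4% of all genes. NDRG4 rose by 0.78 ± 0.05 (SE) against NS siRNA and by 0.30 ± 0.05 against mock (limma adjusted p = 1.19e-07 and 0.00082). NDRG3 was higher than in NS siRNA by 0.20 and lower than in mock by 0.24 (adjusted p = 0.00847 and 0.00308). FUNDC1, another mitophagy receptor, fell by 0.29 against NS siRNA (adjusted p = 0.000187) and was at -0.11 against mock (adjusted p = 0.0843). BNIP1 was lower than in NS siRNA by 0.18 and higher than in mock by 0.18 (adjusted p = 0.00755 and 0.00908). Each call was made on 1 of 3 probe sets.

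Among 23 HIF targets of glucose metabolism, 2 rose and 8 fell against NS siRNA (43.5% called, beside 45.1% of all genes). Against mock 1 rose and 10 fell (47.8%, beside 31.1%). The glucose transporters diverged. SLC2A1 (GLUT1) fell by 0.49 ± 0.05 (SE) against NS siRNA and by 0.73 ± 0.05 against mock (limma adjusted p = 4.24e-06 and 2.30e-07). Of its 2 probe sets, 1 was called against NS siRNA and 2 against mock. SLC2A3 (GLUT3) rose by 0.75 ± 0.05 against NS siRNA and by 0.66 ± 0.05 against mock (adjusted p = 5.55e-08 and 4.18e-07) on all 3 probe sets. The phosphofructokinase PFKP fell by 1.13 ± 0.06 and the isomerase GPI by 0.33 ± 0.05 against NS siRNA (adjusted p = 6.22e-09 and 7.02e-05). They fell by 0.85 and by 0.52 against mock (adjusted p = 1.67e-07 and 2.63e-06). For PFKP, 1 of 2 probe sets was called against mock.

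The list of other HIF targets held 43 measured genes of matrix, lipid, chromatin and iron function. Of these, 18 were higher and 12 lower against NS siRNA (69.8% called, beside 45.1% of all genes). Against mock 11 were higher and 9 lower (46.5%, beside 31.1%). The heme oxygenase HMOX1 fell in both comparisons, at -2.61 ± 0.07 (SE) against NS siRNA and -2.53 ± 0.07 against mock (limma adjusted p = 3.36e-11 and 9.90e-11), and the transferrin receptor TFRC by 1.15 ± 0.05 against NS siRNA and by 0.94 ± 0.05 against mock (adjusted p = 1.81e-09 and 2.29e-08; 3 of 5 probe sets). IGFBP3, a binding protein of insulin-like growth factors, rose by 1.41 ± 0.05 against NS siRNA and by 0.49 ± 0.05 against mock (adjusted p = 2.12e-10 and 5.07e-06). TMEM45A rose by 2.83 ± 0.13 against NS siRNA and by 0.63 ± 0.13 against mock (adjusted p = 2.59e-09 and 0.00204), and the difference of NS siRNA from mock was -2.20 (adjusted p = 8.22e-08).

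**Figure D3:**
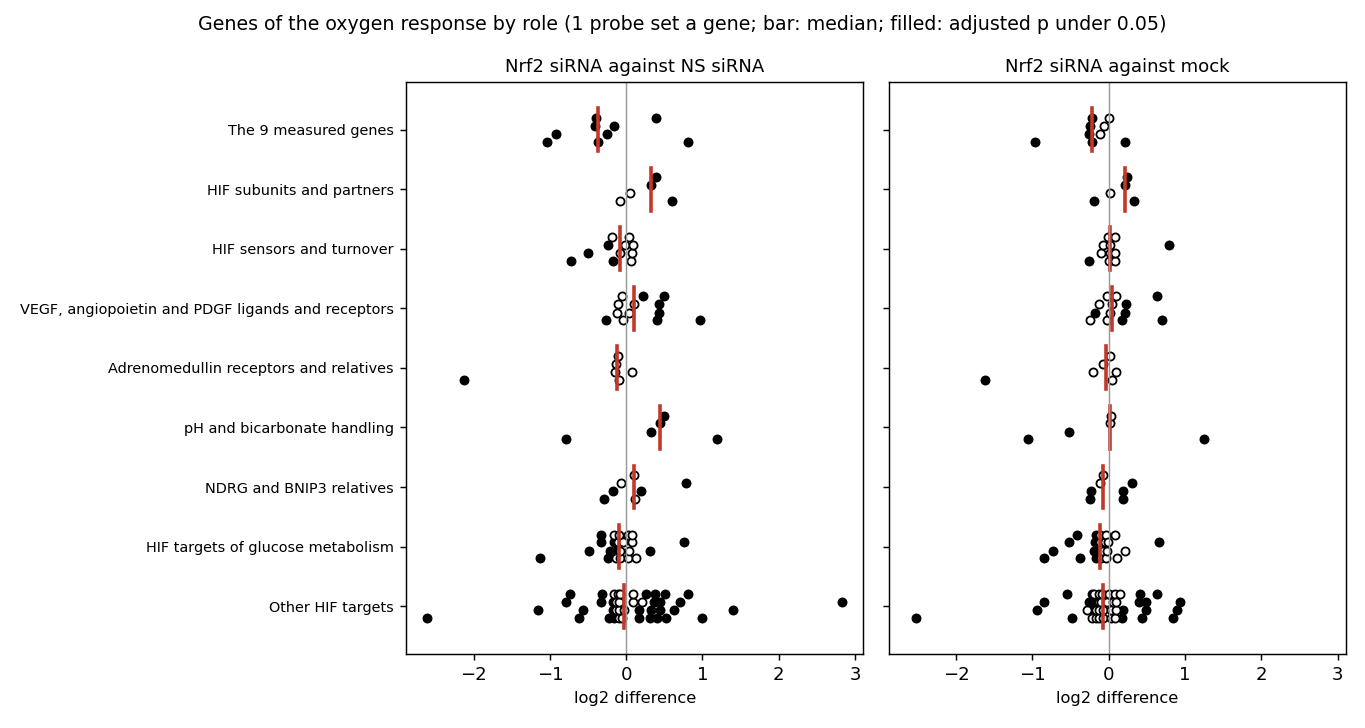
Log2 differences of the 9 measured genes and of 8 lists of related genes, 1 point a gene on its brightest probe set, against NS siRNA (left) and mock (right); bars are list medians and filled points passed an adjusted p of 0.05. The 9 genes had medians of -0.37 against NS siRNA and -0.21 against mock, and the subunits and partners 0.32 against NS siRNA and 0.22 against mock.

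Markers of other cell types were read beside these results. Of all genes on their brightest probe set, 45.1% passed against NS siRNA, 20.4% higher and 24.7% lower. Beside that, 12.5% of endothelial, 50% of fibroblast, 33.3% of immune and 71.4% of epithelial markers passed. Of 8 endothelial markers 0 rose and 1 fell against NS siRNA, and their summed level was 10.73 to 10.88 (log2) after Nrf2 siRNA, 10.88 to 10.95 after NS siRNA and 10.83 to 10.89 in mock. Of 8 fibroblast markers 4 rose and 0 fell, with a sum of 12.13 to 12.33 after Nrf2 siRNA, 11.24 to 11.29 after NS siRNA and 11.69 to 11.95 in mock; LUM and COL3A1 rose most (by 3.01 and 1.73). Of 6 measured immune markers 1 rose and 1 fell, with a sum of 10.32 to 10.39 after Nrf2 siRNA, 10.14 to 10.19 after NS siRNA and 10.02 to 10.12 in mock, the rise being that of CD14 (0.96). Of the 7 epithelial markers 4 rose and 1 fell, and their sum was 16.14 to 16.22 after Nrf2 siRNA, 16.09 to 16.11 after NS siRNA and 15.99 to 16.02 in mock. The part of these shifts in the differences above was not tested.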

How the data were processed

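A549 RNA was hybridised to 9 Affymetrix arrays, 1 for each biological replicate. The authors deposited log2 expression values, made by RMA per the submitters' processing notes; no version or setting of it is given in the sources used here. RMA by design normalizes between arrays. The 54675 probe sets ran from 3.6 to 15.06, with 0 columns left unused. Setting aside 62 controls, the annotation gave 1 gene for 41091 probe sets, several for 1801 and none here for 11721. Symbols were renewed by Entrez number from a RefSeq table of GRCh38.p14, which held 41037 of them.

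A model with a mean for each of the 3 groups was fitted to all 9 arrays with limma 3.58.1 in R 4.3.3 (lmFit, eBayes; 6 residual and 6.20 prior degrees of freedom). Two-sided p-values were adjusted over all 41091 probe sets by the Benjamini-Hochberg method, and 0.05 was the threshold. Folds are back-transformed log2 differences, and SEs are those of the model. Wider lists were read on each gene's probe set of highest mean, and up to 4 genes a list were named, those of smallest adjusted p against NS siRNA. The members and lists were chosen with earlier results of these data known. The number of arrays limits the precision. Scan dates and detection calls were not used here, so no batch was examined. Arrays were simulated for Nrf2 siRNA against NS siRNA with 200 of 41091 probe sets changed and equal means for NS siRNA and mock. The fit recovered 100% of changes of 1 (log2), 79.1% of 0.5 and 24.2% of 0.25, with 2 false calls. In the data, 41.7% of probe sets passed against NS siRNA and 25.9% between NS siRNA and mock. Since the adjusted threshold depends on the share changed, the simulated rates do not describe the calls made here. Alternatives changed the scaling, filter, summary per gene, variance model, samples fitted, replicate block, threshold and, in turn, each replicate. Promoters were searched with Python 3.11.15 and figures drawn with matplotlib 3.10.9.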

Additional observations from a re-analysis of the deposited data

How the results depend on the processing

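Over 16 to 19 alternative settings each, the 60 differences of the 20 probe sets gave 1071 values, of which 1010 kept their direction and side of the threshold, 26 lost the call, 20 gained it and 15 changed sign. All 15 sign changes were of differences that had not passed the threshold. EPAS1 241055_at against NS siRNA became 0.0081 with equal array medians, 0.0129 with quantile normalization and 0.0076 without Nrf2 siRNA replicate 2. Against mock it became -0.0061 without Nrf2 siRNA replicate 3 and -0.0326 without mock replicate 2. Between NS siRNA and mock it became -0.0008, -0.0059 and, without mock replicate 2, -0.0181. ADM against mock became -0.0098 with quantile normalization, -0.0159 without Nrf2 siRNA replicate 2 and -0.0184 without mock replicate 3. EGLN1 223045_at against mock became 0.0328 without Nrf2 siRNA replicate 1 and 0.0328 without mock replicate 2. Between NS siRNA and mock, EPAS1 became -0.0018 as the mean of its probe sets and ANGPTL4 221009_s_at 0.0087 without NS siRNA replicate 3. With 1 array left out, EPAS1 241055_at ranged from -0.0297 to 0.0076 against NS siRNA, from -0.0326 to 0.0395 against mock and from -0.0181 to 0.054 between NS siRNA and mock. EGLN1 223045_at ranged from -0.0866 to 0.0328 and ADM from -0.0184 to 0.0402 against mock, and ANGPTL4 221009_s_at from -0.1042 to 0.0087 between NS siRNA and mock. The cause was not tested.

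With 1 probe set a gene, fewer features were tested, and 9422 passed against NS siRNA, 6530 against mock and 6082 between NS siRNA and mock, of which 9, 6 and 5 were among the 9 genes. With probe sets averaged within genes, 9480, 6401 and 5807 passed, with 9 and 7 of the 9 genes against NS siRNA and mock. Against mock those 7 were all lower, EGLN3 among them, and EGLN1 did not pass. With 1 array left out, 14797 to 16970 probe sets passed against NS siRNA, 9814 to 11545 against mock and 8827 to 10912 between NS siRNA and mock. Of the 20, 18 to 19, 12 to 13 and 7 to 10 passed, and of the wider lists 58 to 63, 43 to 52 and 47 to 54 genes.

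With the replicate number as a block, 17508, 12046 and 10993 probe sets passed, and 19, 12 and 10 of the 20. Same-numbered arrays deviated from their group means with correlations of -0.1878 to 0.1894 over 9 pairs, 5 of them over 0.1, and 7 of 9 arrays correlated best with their own number. No label says that the numbers mark a shared batch, so the main fit used no block. The arrays have no detection calls here, and 3 replicates a group set the precision.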
